A study of Mus musculus with 5 samples.

Results

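Dlx1, Dlx2, Dlx3, Dlx4, Dlx5, Dlx6, Msx1 and Msx2 encode homeodomain transcription factors of the Distal-less and muscle segment homeobox families. These 8 genes were taken by name from the mouse mm9 GENCODE vM1 annotation, out of 22350 protein-coding genes on the chromosomes with peaks. They lie at 5 loci, since the Dlx genes form 3 pairs whose partners face each other: Dlx1 with Dlx2, Dlx3 with Dlx4, and Dlx6 with Dlx5. Each gene's start site (the 5' end of the gene model) and gene body were set against lists of regions enriched for trimethylated lysine 27 of histone H3 (H3K27me3), measured by chromatin immunoprecipitation and sequencing (ChIP-Seq).

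The cells were mouse embryonic fibroblasts (MEFs), derived by the study's methods from an E13.5 embryo with loxP sites in Eed, the gene of a core subunit of Polycomb Repressive Complex 2 (PRC2). All 3 groups analysed here were transduced with lentivirus for stable expression: of H3.3K27R, a histone H3.3 with arginine at residue 27; of H3.3K27M, the oncohistone with methionine there, which inhibits PRC2; or of human EZHIP, the PRC2 inhibitor of posterior fossa ependymoma. They are called K27R, K27M and EZHIP below, and K27M and EZHIP together are called the inhibitor lists. The parental Control cells and the EEDnull line, which was 1 clone, were not analysed here. Each group was 1 library, and the lists hold positions only. No difference below could therefore be set against replicate spread or depth, which is unknown, and no test was run. Expressed transgenes in cultured fibroblasts cannot be taken to represent a tissue in which Dlx or Msx genes are active. Transcription of these genes was not examined here.

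PRC2 places H3K27me3 on genes that are kept silent in a given cell type, and CpG islands, stretches of DNA rich in CG dinucleotides, are the sites where it is typically recruited and from which the mark spreads. Dlx genes pattern the jaw, limb and inner ear, and Dlx1, Dlx2, Dlx5 and Dlx6 also act in the forebrain neurons that make GABA. Dlx3 is known for its part in skin, hair, tooth and bone. Msx1 and Msx2 act downstream of bone morphogenetic proteins in tooth, palate, skull and limb mesenchyme.

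The start sites of 9 of 10 fibroblast marker genes, among them Col1a1, Col1a2 and Vim, were outside every list. Most genes are outside them too: 30.1% of all protein-coding start sites lay in K27R, 9.02% in K27M and 7.73% in EZHIP. The exception, Pdgfra, lay in all 3 lists, in an interval of 35.2 kb in K27R that shrank to 11.8 kb in K27M and to 7.0 kb in EZHIP. A list of peaks shows where the mark was called and not whether a gene is transcribed, and a site outside a list may carry the mark below the limit of the caller.

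The 8 genes did not share 1 outcome, and the sequences just before their start sites show that they did not share 1 base composition either. The 250 bases upstream of 4 start sites are shown, with every CG in capitals, because these genes span the outcomes described next: Dlx1 and Dlx2 lay outside both inhibitor lists, and Msx1 and Msx2 lay inside both. All are from the mm9 genome and are written 5' to 3' along the strand of the gene.
Dlx1, chr2:71365920-71366169, plus strand: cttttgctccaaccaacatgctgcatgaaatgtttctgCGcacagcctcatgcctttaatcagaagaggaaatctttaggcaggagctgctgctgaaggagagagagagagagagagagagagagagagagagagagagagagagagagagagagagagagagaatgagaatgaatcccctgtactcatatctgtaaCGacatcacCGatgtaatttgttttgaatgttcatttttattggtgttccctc
Dlx2, chr2:71384812-71385061, minus strand: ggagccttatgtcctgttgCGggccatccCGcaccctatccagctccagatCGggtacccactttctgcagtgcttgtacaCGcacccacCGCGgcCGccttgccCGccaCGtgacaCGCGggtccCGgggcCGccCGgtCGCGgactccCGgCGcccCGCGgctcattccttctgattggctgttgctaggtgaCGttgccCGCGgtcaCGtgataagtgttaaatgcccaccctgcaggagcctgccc
Msx1, chr5:38215823-38216072, minus strand: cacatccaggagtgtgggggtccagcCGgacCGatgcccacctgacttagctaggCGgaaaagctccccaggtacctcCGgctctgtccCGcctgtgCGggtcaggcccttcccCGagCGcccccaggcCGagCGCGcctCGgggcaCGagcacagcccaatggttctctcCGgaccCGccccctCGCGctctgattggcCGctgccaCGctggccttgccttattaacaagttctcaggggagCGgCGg
Msx2, chr13:53568444-53568693, minus strand: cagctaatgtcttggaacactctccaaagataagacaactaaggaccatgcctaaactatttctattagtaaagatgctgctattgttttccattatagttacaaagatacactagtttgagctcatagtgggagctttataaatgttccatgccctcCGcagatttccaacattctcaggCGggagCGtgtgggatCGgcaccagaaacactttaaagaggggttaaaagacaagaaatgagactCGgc

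The window held 3 CGs at Dlx1, 24 at Dlx2, 21 at Msx1 and 5 at Msx2. It held 11 at Dlx3, 7 at Dlx4 and 9 at Dlx5, which are not printed. Over 22345 protein-coding genes with a full window the median was 8. Among genes marked in K27R, the median was 13 for the 1476 start sites that lay in both inhibitor lists and 4 for the 4476 that lay in neither. Over the 2 kb centred on the start site, Dlx1 had the lowest density, 37.5 CGs per kb, and Dlx2 the highest, 59.0. The Dlx1 values, 3 CGs and 37.5 per kb, were taken at the most upstream of its 6 annotated starts. TAATTA, letters to which many homeodomains bind and which read the same on both strands, was in none of these 7 windows and in 4.59% of all of them. TATAAA, searched on both strands, was in the window of Msx2 and in 12.3% of all.

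All 8 start sites lay in a K27R interval, in 5 separate regions, while 30.1% of all protein-coding start sites did. In K27M and in EZHIP the same 6 of 8 start sites lay in an interval: those of Dlx3, Dlx4, Dlx5, Dlx6, Msx1 and Msx2. Over all genes, 9.02% of start sites lay in a K27M interval, 7.73% in an EZHIP interval and 6.60% in both. Of the 6735 start sites marked in K27R, 29.9% were also in K27M, 25.6% were also in EZHIP, and 66.5% were in neither, the state of Dlx1 and Dlx2. The start sites of 7 members, all but that of Dlx1, lay within 500 bp of a CpG island. The Dlx1 start used here, the most upstream of 6 annotated ones, lay 796 bp from an island. Other annotated starts of Dlx1 lay nearer to it, and that at chr2:71367158 lay inside it. Of the 2903 K27R start sites within 500 bp of an island, 39.8% were in both inhibitor lists and 42.6% in neither. Partners of a Dlx pair share their K27R interval, so the 6 retained genes are 4 loci and the pair that left the lists is 1 locus.

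**Figure D1:**
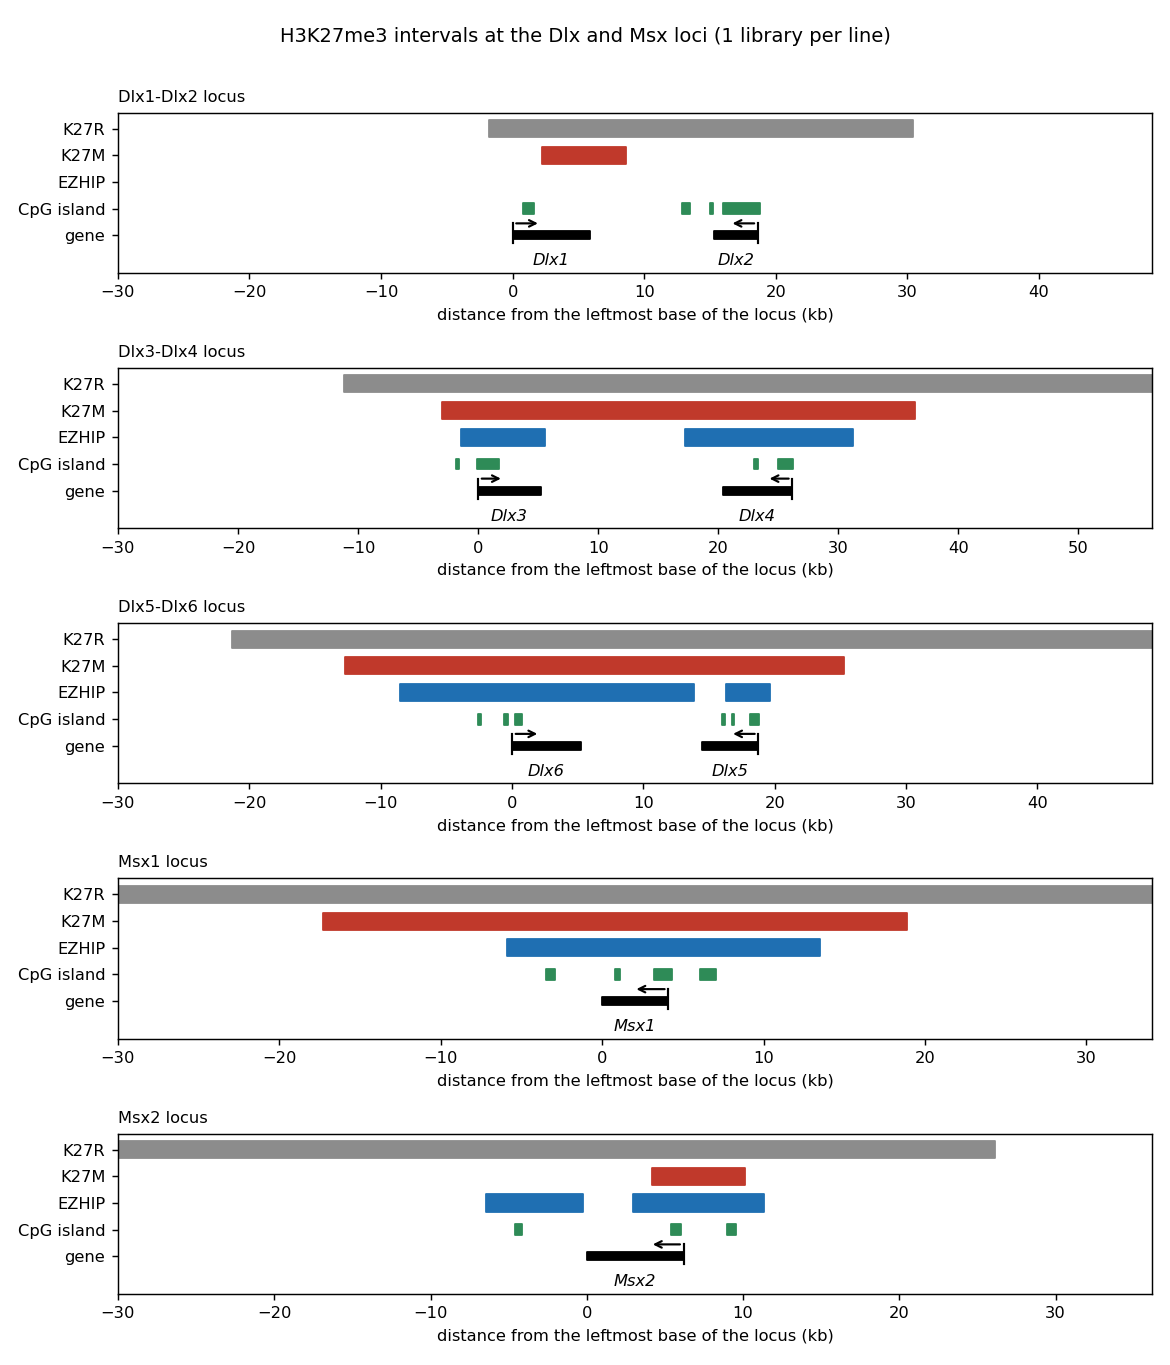
H3K27me3 intervals of the 3 lists (bars; 1 library each), CpG islands (green) and genes (black, arrow at the start site) at the 5 loci, by distance in kb from the leftmost base of each locus; K27R intervals that reach past a panel are cut at its edge. K27M and EZHIP bars cover the start sites at 4 loci, while at Dlx1-Dlx2 a 6.4 kb K27M bar lies between the start sites and EZHIP has none.

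Dlx1 and Dlx2, the forebrain and upper jaw pair, were the members whose start sites lay outside both inhibitor lists. Dlx1 spans chr2:71366170-71372038 on the plus strand and Dlx2 spans chr2:71381466-71384811 on the minus strand. In K27R, a single interval of 32.2 kb, chr2:71364401-71396600, covered both gene bodies wholly. It was the narrowest of the 5 regions, although wider than or equal to 67.7% of all K27R intervals. Counted over marked protein-coding start sites, it was at least as wide as the interval of only 20.9%. In K27M, 1 peak of 6.4 kb was left, chr2:71368401-71374800. It began 2231 bp downstream of the Dlx1 start and covered 62.0% of the Dlx1 body, 29.3% of the 9.43 kb between the genes and none of Dlx2. It made up 19.9% of the region. Its edge lay 10011 bp from the Dlx2 start.

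EZHIP had no peak in the region at all. The nearest one was 450.0 kb from the Dlx1 start and 431.4 kb from the Dlx2 start. The K27M peak at Dlx1 thus had no counterpart in EZHIP. Dlx1 has 6 annotated transcript starts, and 1 of them, the most downstream, lay in the K27M peak. The others were between 397 and 2231 bp outside it. The start of Dlx1as, a long non-coding RNA transcribed from the opposite strand, lay in the K27R interval and in neither inhibitor list.

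The K27M peak at Dlx1 did not sit on a CpG island. The region held 4 islands of 285 to 2789 bp, found in the mm9 sequence by length, GC content and CG frequency, and all 4 lay wholly outside both inhibitor lists. The island nearest to the peak, of 818 bp with 83 CGs at chr2:71366966-71367783, ended shortly before the peak began at 71368401. The largest island, with 205 CGs, spans the Dlx2 start. The peak that remained had 27 CGs per kb and no island bases, against 29.3 in the rest of the region. One of the cleared islands is shown beside an island from a pair that kept the mark, again with CG in capitals, on the plus strand of mm9. The first lies between Dlx1 and Dlx2, close to the 3' end of Dlx2, and is in neither inhibitor list. The second lies upstream of Dlx6 and is in both.
Dlx1-Dlx2, chr2:71381147-71381431: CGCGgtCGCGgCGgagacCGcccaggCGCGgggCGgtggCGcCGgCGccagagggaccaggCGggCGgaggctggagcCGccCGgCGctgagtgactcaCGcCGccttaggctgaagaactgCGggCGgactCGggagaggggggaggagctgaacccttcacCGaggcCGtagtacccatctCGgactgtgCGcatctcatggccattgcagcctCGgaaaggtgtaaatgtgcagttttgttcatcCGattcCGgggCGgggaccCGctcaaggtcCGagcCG
Dlx5-Dlx6, chr6:6812726-6812995: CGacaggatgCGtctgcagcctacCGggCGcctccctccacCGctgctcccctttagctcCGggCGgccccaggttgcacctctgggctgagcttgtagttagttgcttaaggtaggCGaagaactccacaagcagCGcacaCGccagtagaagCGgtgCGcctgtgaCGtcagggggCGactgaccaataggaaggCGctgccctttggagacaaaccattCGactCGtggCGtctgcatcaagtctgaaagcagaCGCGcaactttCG

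They held 33 CGs in 285 bp and 21 in 270 bp. This pair does not stand for the rest: the cleared islands of Dlx1-Dlx2 ranged from 7.35 to 11.6 CGs per 100 bp, the largest being the least dense, and the 6 islands of Dlx5-Dlx6, all in K27M, ranged from 7.78 to 12.3.

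Dlx3 and Dlx4 kept the mark at both start sites, and K27M covered far more of the region than EZHIP did. Dlx3 spans chr11:94981403-94986610 on the plus strand and Dlx4 spans chr11:95001770-95007577 on the minus strand. The K27R interval, chr11:94970201-95106200, was 136.0 kb wide. In K27M, 1 peak of 39.4 kb, chr11:94978401-95017800, ran over both genes and the 15.2 kb between them, and peaks of 20.8 and 15.2 kb lay farther to the right. Together they covered 55.4% of the region, the highest share at any of the 5 loci.

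In EZHIP, the pair was split into a 7.0 kb peak over Dlx3, chr11:94980001-94987000, and a 14.0 kb peak over Dlx4, chr11:94998601-95012600. They covered both gene bodies wholly, 23.5% of the DNA between the genes and 15.4% of the region. The 11.6 kb between these peaks was inside the K27M peak. Of 6 islands, K27M held all 6 and EZHIP held 3: the 2 at the start sites and 1 within Dlx4. The 3 that EZHIP left out lay outside the genes of the pair. The start of A730090H04Rik, a long non-coding RNA that begins inside Dlx4 on the opposite strand, was in all 3 lists.

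Dlx5 and Dlx6, the lower jaw and limb pair, also kept the mark at both start sites, with different extents in EZHIP. Dlx6 spans chr6:6813334-6818568 on the plus strand and Dlx5 spans chr6:6827805-6832085 on the minus strand. The K27R interval, chr6:6792001-6902200, was 110.2 kb wide. In K27M, 1 peak of 38.0 kb, chr6:6800601-6838600, ran over both genes and covered 34.5% of the region. In EZHIP, Dlx6 lay in a peak of 22.4 kb, chr6:6804801-6827200, and the Dlx5 start in one of 3.4 kb, chr6:6829601-6833000. These peaks covered 23.4% of the region.

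The EZHIP peak over the Dlx5 start was the narrowest over any member. It reached 0.915 kb upstream and 2.48 kb into the gene, so that it covered 58.0% of the body, while Dlx6 was covered wholly. This value rests on how intervals were joined: merging intervals up to 10 kb apart gave 100% of the Dlx5 body, and keeping only intervals of at least 5 kb gave 0. The break between the EZHIP peaks is shorter than the maximum gap named in the study's methods, so the joining used for this list is not known. The 2.4 kb between the EZHIP peaks was shorter than any gap in the K27M list, whose shortest was 5.2 kb, whereas the EZHIP list had gaps down to 1.2 kb. The K27M list thus had no break of that length anywhere. K27M held all 6 islands of the region and EZHIP held 5, the exception being a 262 bp island inside Dlx5. The start of Dlx6os1, a non-coding RNA antisense to Dlx6, was in all 3 lists.

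Msx1, a gene of tooth and palate mesenchyme, lay in the widest of the K27R regions. It spans chr5:38211724-38215822 on the minus strand. Its K27R interval, chr5:38074801-38441200, was 366.4 kb wide. It was wider than or equal to 98.9% of all K27R intervals and to those over 87.5% of marked protein-coding start sites. K27M had 5 peaks in it with 63.4 kb in all, 17.3% of the region, and EZHIP had 8 with 65.2 kb, 17.8%. The peak over the Msx1 start was 36.2 kb wide in K27M, chr5:38194401-38230600, and 19.4 kb in EZHIP, chr5:38205801-38225200. The gene body was covered wholly in both.

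The Msx1 region was the only one of the 5 where neither inhibitor list was nested in the other. The peaks overlapped over 43.8 kb, which is 69.1% of the K27M length and 67.2% of the EZHIP length. EZHIP had 3 peaks, of 5.4, 3.2 and 8.0 kb, that did not touch a K27M peak. Of 7 islands, 6 were in both lists, and the 1 in neither lay just inside Stx18. The region also held the start sites of Stk32b, Cytl1 and Stx18. That of Stk32b was in all 3 lists, with peaks of 3.8 kb in K27M and 5.0 kb in EZHIP, and those of Cytl1 and Stx18 were in K27R only. For Stx18, an EZHIP peak ended 0.381 kb short of the start site and a K27M peak 1.78 kb short.

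Msx2, a gene of the skull and limb, lay in both inhibitor lists at its start site but, in the lists as deposited, not over its homeobox. It spans chr13:53562250-53568443 on the minus strand. The K27R interval, chr13:53462201-53588400, was 126.2 kb wide. In K27M, a 6.0 kb peak was left, chr13:53566401-53572400, which covered the start site, 33.0% of the body and 4.75% of the region, the lowest K27M share at the 5 loci. In EZHIP, 3 peaks of 12.4, 6.2 and 8.4 kb covered 21.4% of the region. The last of them, chr13:53565201-53573600, held the start site and the whole K27M peak, and EZHIP peaks covered 52.4% of the body. With intervals up to 10 kb apart merged, EZHIP covered the whole body, homeobox included, since the gap over it was 3.2 kb.

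The order of the inhibitor lists was thus reversed between Msx2 and the Dlx pairs: EZHIP covered more of the K27R region at Msx2, and K27M covered more at the Dlx loci. At Msx1 the shares differed by less than 1 percentage point, whereas within 50 kb on each side of the gene K27M covered 34.8% and EZHIP 18.6%. Among the 1478 K27R regions with a protein-coding start that kept a peak in both lists, the median share was 15.8% in K27M, with quartiles of 7.46 and 33.9, and 12.9% in EZHIP, with quartiles of 6.36 and 25.3. EZHIP covered more than K27M in 29.8% of them. With 1 library each, a difference between constructs and a difference between libraries or calls cannot be told apart. Of the 4 islands in the Msx2 region, 2 were in both lists, 1 was in EZHIP alone, and the 1 in neither lay at Sptlc1, which makes a subunit of serine palmitoyltransferase.

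**Figure D2:**
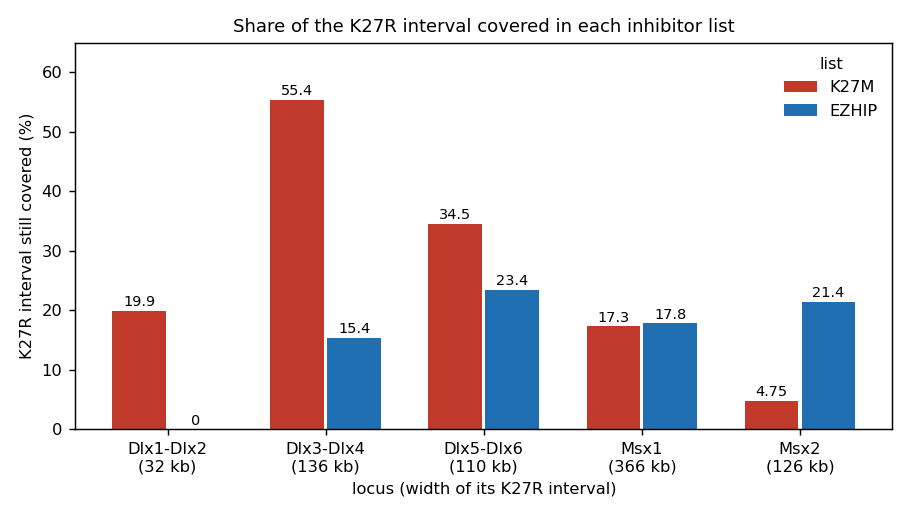
Percent of each locus' K27R interval that was still covered by K27M (red) or EZHIP (blue) peaks, 1 library each; the width of the K27R interval is given under each locus. K27M ranges from 4.75% at Msx2 to 55.4% at Dlx3-Dlx4, and EZHIP from 0 at Dlx1-Dlx2 to 23.4% at Dlx5-Dlx6.

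The widths of the intervals over the start sites show how members compare with other marked genes. In K27R, the 5 intervals had a median width of 126.2 kb and ranged from 32.2 to 366.4 kb. Counted per start site, the median was 118.2 kb over the 8 members and 96.8 kb over all marked protein-coding start sites. The quartiles over those start sites were 39.6 and 223.4 kb. The interval of Dlx1-Dlx2 was below the lower quartile and that of Msx1 above the upper. In K27M, the 4 intervals had a median of 37.1 kb, or 38.0 kb counted per start site, against 11.8 kb over 2015 start sites. Those of the 2 Dlx pairs and Msx1 were above the upper quartile of 27.7 kb, and that of Msx2 was just below the lower quartile of 6.2 kb. In EZHIP, the 6 intervals had a median of 11.2 kb against 8.4 kb over 1728 start sites. Dlx6 and Msx1 were above the upper quartile of 15.6 kb, Dlx5 was below the lower quartile of 5.0 kb, and Dlx3, Dlx4 and Msx2 were between them. Each of the 4 genes in a wide K27M interval shared with a partner had an EZHIP interval of its own.

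**Figure D3:**
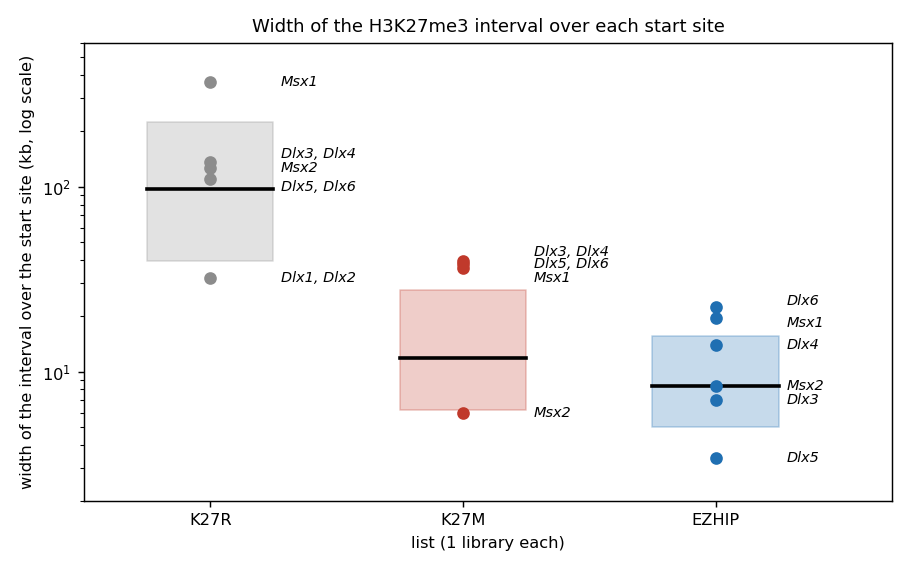
Width in kb, on a log scale, of the interval that holds each member's start site (points, named; partners share a point where they share an interval) in the 3 lists, 1 library each. Bars are the median and shaded boxes the quartiles over all protein-coding start sites held by that list, and K27M points other than Msx2 lie above the box.

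At the 4 loci that kept the mark at a start site, the parts of the K27R region inside a residual peak were richer in CG than the rest. These start sites all lay within 500 bp of a CpG island, so grouping loci by them places CG-rich sequence inside the peaks. The same densities over all K27R regions were not computed. In K27M the densities were 18.3 CGs per kb inside and 12.8 outside at Dlx3-Dlx4, 22.1 and 7.6 at Dlx5-Dlx6, 18.4 and 9.26 at Msx1, and 33.3 and 11.9 at Msx2. In EZHIP they were 27.1 and 13.7, 24.8 and 8.87, 17.9 and 9.31, and 19.2 and 11.2, in the same order. The Dlx1-Dlx2 region, with 28.9 CGs per kb over its whole length, was denser than any other region and denser than the residual peaks of every other locus but those of K27M at Msx2. Over the 5 regions, 27 islands were found, of which 20 were in K27M, 17 in EZHIP, 16 in both and 6 in neither, and 4 of those 6 were at Dlx1-Dlx2. The share of islands in peaks over all K27R regions was not computed. The island counts given here and at each locus thus have no background to be read against.

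**Figure D4:**
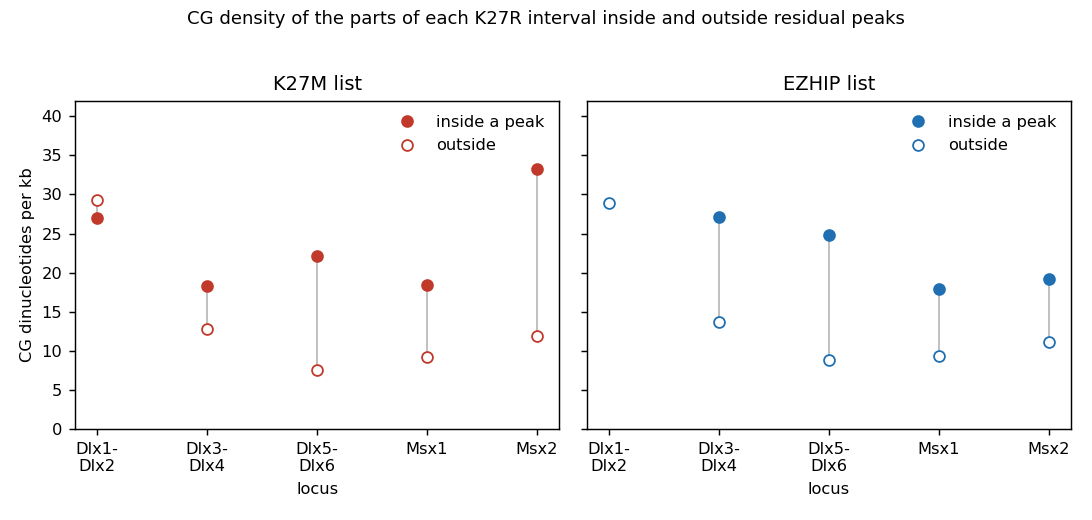
CG dinucleotides per kb in the parts of each locus' K27R interval inside (filled) and outside (open) residual peaks, for K27M on the left and EZHIP on the right; EZHIP had no peak at Dlx1-Dlx2. Filled points lie above open ones at 4 loci in both lists, and at Dlx1-Dlx2 the open K27M point, 29.3, is above the filled one, 27.

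The homeobox is the stretch of 180 coding bases that encodes the DNA-binding homeodomain. In Dlx genes it is split between exons 2 and 3, with 132 and 48 bases, and in Msx genes it lies whole in exon 2. K27R covered it in all 8 genes. K27M covered it wholly in Dlx1, Dlx3, Dlx4, Dlx5, Dlx6 and Msx1 and not at all in Dlx2 and Msx2. EZHIP covered it wholly in Dlx3, Dlx4, Dlx6 and Msx1, over 57 of 180 bases in Dlx5, and not in Dlx1, Dlx2 and Msx2. Dlx1 and Msx2 were thus opposite in K27M: Dlx1 was marked over the homeobox and not over exon 1, and Msx2 over exon 1 and not over the homeobox.

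The spliced homeobox is printed on the coding strand for the pairs whose partners differed: Dlx1 and Dlx2 in K27M, and Dlx5 and Dlx6 in EZHIP. Bases inside an EZHIP peak are in capitals, so the K27M difference between Dlx1 and Dlx2 does not show. Dlx1 lies at chr2:71369082-71369213 and chr2:71370321-71370368, Dlx2 at chr2:71382934-71382981 and chr2:71383441-71383572, Dlx5 at chr6:6828441-6828488 and chr6:6829526-6829657, and Dlx6 at chr6:6815140-6815271 and chr6:6817041-6817088.
Dlx1: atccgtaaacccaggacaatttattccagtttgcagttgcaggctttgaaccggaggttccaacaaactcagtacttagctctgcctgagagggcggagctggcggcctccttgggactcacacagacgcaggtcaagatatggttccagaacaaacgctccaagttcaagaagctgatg
Dlx2: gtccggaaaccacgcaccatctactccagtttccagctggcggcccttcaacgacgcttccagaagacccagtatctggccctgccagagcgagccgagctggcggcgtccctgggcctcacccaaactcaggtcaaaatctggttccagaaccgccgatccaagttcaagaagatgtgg
Dlx5: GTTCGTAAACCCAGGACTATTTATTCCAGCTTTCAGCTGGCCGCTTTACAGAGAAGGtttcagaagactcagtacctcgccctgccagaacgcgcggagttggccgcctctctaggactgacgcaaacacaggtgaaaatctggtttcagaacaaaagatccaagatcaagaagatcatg
Dlx6: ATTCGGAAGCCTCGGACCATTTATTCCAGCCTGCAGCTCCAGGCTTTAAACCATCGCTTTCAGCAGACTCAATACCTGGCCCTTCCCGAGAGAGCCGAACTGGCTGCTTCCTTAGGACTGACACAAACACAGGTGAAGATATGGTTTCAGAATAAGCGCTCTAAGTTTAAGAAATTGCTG

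Capitals run through the whole of Dlx6, stop after 57 bases in Dlx5 and are absent from Dlx1 and Dlx2. The homeobox bases were identical at 73.9% of positions between Dlx1 and Dlx2 and at 73.3% between Dlx5 and Dlx6. Over the 15 pairs of Dlx genes identity ranged from 66.1% to 81.7%, between Msx1 and Msx2 it was 82.2%, and between Dlx and Msx genes it ranged from 54.4% to 65.0%. Between Dlx3 and Dlx4 it was 71.7%. Whether homeobox identity goes with coverage was not tested.

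**Figure D5:**
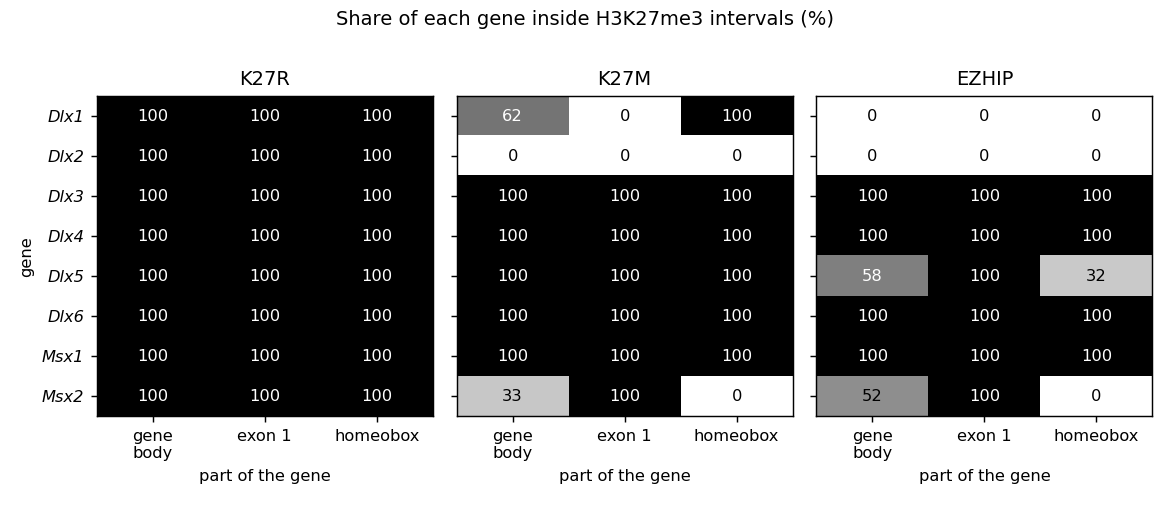
Percent of the gene body, exon 1 and homeobox (columns) of each gene (rows) that lies inside intervals of the 3 lists, 1 library each, from 0 (white) to 100 (black). K27R is 100 throughout; in K27M Dlx1 has the homeobox but not exon 1, Msx2 has the reverse, and in EZHIP the Dlx1 and Dlx2 rows are 0.

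Of the 10 nearest protein-coding genes, 1 on each side of each locus, 3 had a start site in K27R: Cytl1, Stx18 and Sptlc1. All 3 lay in the K27R interval of Msx1 or Msx2 itself, so they are not separate draws to set against the 30.1% of all genes. None of the 10 had a start site in K27M or EZHIP, where 9.02% and 7.73% of all genes had one. Metap1d, a methionine aminopeptidase gene whose 3' end is 2.92 kb from Dlx1, had its start 73.1 kb from the nearest K27R interval. The start of Acn9 was 3.80 kb beyond the Dlx5-Dlx6 interval, and that of Tac4, a tachykinin gene, 16.6 kb beyond the Dlx3-Dlx4 interval.

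Genes that act with Dlx and Msx were looked up in lists by role, with 36 genes in all. Of these, 26 had a start site in K27R, 21 in K27M, 18 in EZHIP and 18 in both inhibitor lists, to be read against 30.1%, 9.02%, 7.73% and 6.60% of all genes. The lists name developmental regulators and are no random draw of genes. The 3 in an inhibitor list alone were all in K27M: Alx4, a homeobox gene of the face and limb, with 13.4 kb, Lhx6, a gene of interneurons, with 23.8 kb, and Lef1, a Wnt effector needed for teeth, with 17.6 kb.

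Among 9 genes of signals and receptors, 6 were in K27R and 4 in both inhibitor lists. The ligand gene Bmp2 lay in a K27R interval of 15.6 kb and in residual peaks of 6.8 kb (K27M) and 4.0 kb (EZHIP), and Bmp7 in 314.2, 15.6 and 10.8 kb. Bmp4, the ligand best known for inducing Msx genes, was in no list.

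Among 14 transcription factors of the face and limb, 9 were in K27R, all 9 of them in K27M and 8 in EZHIP. Hand1 lay in 111.6 kb, 22.6 kb and 20.4 kb in the 3 lists in the same order, and Hand2, which acts below endothelin signalling in the lower jaw with Dlx5 and Dlx6, in 227.0, 51.4 and 13.0 kb.

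Among 7 genes of forebrain interneurons, all 7 were in K27R, 6 in K27M and 5 in EZHIP. Gsx2, a homeobox gene of the same progenitors, lay in 69.0, 33.0 and 23.6 kb, and Nkx2-1, a homeobox gene of the ventral forebrain, in 373.6, 50.2 and 28 kb. Gad1, which makes the GABA-synthesizing enzyme, was like Dlx1 and Dlx2 in K27R only, in an interval of 628.8 kb.

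Among 6 genes of bone and tooth, 4 were in K27R, 2 in K27M and 1 in EZHIP. Runx2, the master regulator of bone-forming cells, was in no list. Sp7, an osteoblast transcription factor, lay in 10.6 kb in K27R only.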

How the data were processed

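H3K27me3 ChIP-Seq was performed on crosslinked, MNase-digested chromatin of 5 samples with 1 library per group, and peak lists of 3 of them were analysed. By the study's methods and the labels, reads were aligned with Bowtie 1.0.0 to mm9 and a reference genome for scaling, and broad peaks were called with MOSAiCS-HMM. The methods state a maximum gap of 10000 bp for joining regions, but all 3 lists hold shorter gaps. The shortest was 0 bp in K27R, where intervals abut, 5200 bp in K27M and 1200 bp in EZHIP. Whether scaling entered the calls, and which library was their background, is not given in the sources used here. The lists deposited by the authors give chromosome, start and end on a 200 bp grid, in bp, with no count, height, score or p-value, so read depth is unknown.

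Positions count from 1. Start sites and gene bodies came from GENCODE vM1 and sequences from the NCBIM37 (mm9) genome, without conversion. CpG islands were found by a running score over CG (17) and other (-1) dinucleotides, keeping stretches of at least 200 bp with at least 50% GC and an observed to expected CG ratio of at least 0.6. This gave 23681 islands, and an island touching a peak by 1 bp was counted as in it. The interval tools were tested on simulated intervals (Python 3.11.15, numpy 2.4.6, pandas 2.3.3). Percentages over all genes are descriptions, and no test was run.

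The 8 genes and the lists by role were chosen with earlier results of these data known. Members, the nearest coding gene on each side, opposite-strand genes, list genes in 1 inhibitor list alone and the first few of each list are named, with Bmp4, Gad1, Runx2 and Sp7 named after their values were seen. Of the symbols in the lists, Tfap2a was matched under its older symbol, and where a symbol had several gene models the one with the lower Ensembl identifier was used. The upstream window of 1 member, 1 island and 1 list gene are not reported here. Alternatives were other definitions of start site, gene body, window and island, minimum widths of 2000 and 5000 bp, and merging of intervals up to 10000 bp apart.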

Additional observations from a re-analysis of the deposited data

How the results depend on the processing

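The 3 lists carry no score, so a stricter score was not run, and no paired analysis was possible because each group has 1 library and no test was made. Of 80 comparisons of summed or counted results with their value under an alternative, 62 stayed within the difference allowed. This was the counting interval for shares and a factor of 1.5 for counts. For median widths it was the whole range of the members' own intervals, 3.4 to 22.4 kb in EZHIP. Under that wide rule the EZHIP median width, 11.2 kb as reported, counted as unchanged at 17.8 kb with merging. The count of 6 start sites in both inhibitor lists became 5 with intervals of at least 5000 bp, which removed the EZHIP peak over Dlx5, and K27M rose to 7 with any transcript start or a distance of 5000 bp, which added Dlx1. The share of all start sites in K27R was 28.2% on autosomes, 24.8% near islands and 38.2% within 5000 bp. That in K27M was 13.1% near islands, 11.4% within 5000 bp and 7.4% with intervals of at least 5000 bp. That in EZHIP was 11%, 11.2% and 5.96% under the same settings, and 8.09% with merging. Over all members, gene bodies widened by 5000 bp were 97.3% in K27R (main value 100%), and in EZHIP they were 52.0% over exons only and 77.0% with merging (main value 65.1%). Merging joined the EZHIP peaks at Dlx5 and Dlx6 and at Msx2, whose gaps were 2.4 and 3.2 kb, so that the bodies of Dlx5 and Msx2 became wholly covered. The share of the regions, pooled, was 23.0% in K27M with intervals of at least 5000 bp (main value 24.5%), and in EZHIP 16.6% with them and 14.1% in windows of 50000 bp on each side (main value 18%). Of the 13 islands of at least 500 bp, 9 were in K27M and 9 in EZHIP. In the same windows K27M covered 5.39% at Dlx1-Dlx2, where the K27R interval is short, and 34.8% at Msx1, and EZHIP covered 13.7% at Msx2, still above the 5.65% of K27M. Msx2 exons were 30.3% in EZHIP. For single genes and loci, 146 values stayed within the allowed difference and 14 moved.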

Other observations

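For each locus, the genes elsewhere whose intervals over the start site were nearest in width over the 3 lists were looked up, by the sum of absolute differences in log2 width from the first gene of the locus. The nearest to Dlx6 was the channel gene Hcn4, with 115.4, 38.0 and 23.8 kb in K27R, K27M and EZHIP. It was followed by Sp8 and Dmrta2, transcription factor genes of limb and forebrain, with 108.0, 38.0 and 28.6 kb and with 109.4, 31.6 and 24.8 kb. Foxd3, a neural crest transcription factor gene, was nearest to Msx1 with 403.6, 31.2 and 19.2 kb, before Grm4 and Zbtb7c. For Msx2 they were Lrp3, Dsp and Gm10129, and for Dlx3 Grip2, Gm5089 and Rasgrf1. Grip2, the nearest to Dlx3, had 113.6, 49.0 and 6.8 kb. The genes at distance 0 from Dlx1, with 32.2 kb in K27R and no interval in K27M and EZHIP, numbered 8, among them Ccdc116, Sdf2l1 and Enah. Within a distance of 1 from Dlx1 lay 1315 of 22342 genes. For Dlx3, Dlx6, Msx1 and Msx2 these numbers were 5, 33, 28 and 43, so the Dlx1 widths were the least distinctive. Likeness in width over 3 libraries is a description.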
